A study of Mus musculus with 6 samples.

Results

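The genes described here are those that bring iron into the cell, store it, let it out and free it from heme: *Tfrc*, *Slc11a1*, *Slc11a2*, *Slc40a1*, *Fth1*, *Ftl1*, *Hmox1*, *Ncoa4*, *Steap3* and *Steap4*. Every transcript probe of the array that carried one of these gene names was taken, which gave 18 of 56591 probes and 10 of 37069 gene names. RNA had been taken from osteoclasts, the bone-resorbing cells that form by fusion of bone marrow macrophages, and each sample was hybridized to its own single-dye array. The study asked which genes depend on Ano1, a chloride channel opened by calcium, while osteoclasts form. The control group was 3 Ano1fl/fl mice, whose *Ano1* alleles are flanked by loxP sites but intact. The conditional knockout group was 3 Ctsk-Cre;Ano1fl/fl littermates, which carry the same floxed alleles and Cre recombinase under the cathepsin K promoter. Deletion in these mice is therefore expected in cells that have switched on cathepsin K, and other cells of a culture keep the gene. Both groups were exposed to RANKL, the cytokine that drives osteoclast formation, for 5 days. According to the general culture methods, marrow came from mice of 6 to 8 weeks, was kept for 1 day in M-CSF at 10 ng/ml, and then received M-CSF at 30 ng/ml and RANKL at 50 ng/ml.

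Cells take up most iron bound to transferrin, which the transferrin receptor carries into endosomes. There a reductase of the STEAP family reduces the iron and the transporter DMT1 moves it into the cytosol. Surplus iron is stored inside ferritin shells, is freed when NCOA4 leads ferritin to the lysosome, and leaves the cell through ferroportin, while heme oxygenase opens the heme ring and releases the iron it holds. Iron-responsive elements, short hairpins in several of these mRNAs, tie the stability of transferrin receptor mRNA and the translation of ferritin mRNA to the iron supply. Osteoclasts are rich in mitochondria, and iron uptake through the transferrin receptor is known to rise as they form.

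All 6 arrays lay on 1 slide, and between 33480 and 34951 of their 59305 transcript spots were well above background. The labels could not be checked against the targeted gene, since the only *Ano1* probe was well above background on 0 of 6 arrays. Every direction below is therefore given by the label of the arrays and would turn if the labels of the groups were exchanged. The osteoclast markers were present in both groups, and by the brightest probe of each 13 of 13 read higher in the group labelled Ctsk-Cre;Ano1fl/fl. The study describes *Nfatc1*, *Acp5*, *Ctsk* and *Mmp9* as lower in osteoclasts of these knockout mice by quantitative PCR. By the brightest probes, the direction by label is opposite to it for these genes. For *Nfatc1* the rise was 0.53, but that probe differed from the gene's other probes by 1.06, more than the rise itself (limma's comparison of the probes of a gene, adjusted p = 0.000914). Of all tested probes, 52.4% passed an adjusted p of 0.05 in limma, 21.8% as higher and 30.6% as lower in the conditional knockout, so a large part of the array differed between the groups. The RNA is from whole cultures, in which fewer cells of a type and less RNA per cell cannot be told apart. The replicates are separate mice, and p-values measure the spread between these 3 and 3 samples.

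The probes on which the results turn are printed first, because several of these genes were read at more than 1 place along the transcript. They are 60-base DNA oligos of the array in the sense of the mRNA. The probe inside the *Tfrc* transcript and the one near the start of the *Slc11a2* transcript are given whole, and of the others the last 30 bases are given. Capitals mark AATAAA, the common signal for cleavage and polyadenylation, which was found on the strand of the probe in 3 of 18 probes of these genes (16.7%) and in 9.77% of all 56605 transcript probes.
Tfrc A_65_P06446, from base 1228 of NM_011638: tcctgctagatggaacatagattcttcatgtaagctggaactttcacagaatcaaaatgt
Tfrc A_52_P228236, from base 4288 of NM_011638: aaccatcattacgcatctaatcagttttgc
Slc11a2 A_52_P254298, from base 253 of NM_008732: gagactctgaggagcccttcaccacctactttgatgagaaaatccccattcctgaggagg
Slc11a2 A_52_P196476, from base 4055 of NM_001146161: acggtacttcaacagtacagtaacctgtaa
Slc11a2 A_55_P2830119, from base 2082 of NM_008732: gtgccagtttgggtaagattttaaggttat
Slc11a2 A_51_P388737, from base 2961 of NM_008732: ttgttatAATAAAgttcatgcttaatagct
Slc40a1 A_55_P2620111, from base 2672 of ENSMUST00000186755: gttggctctctaaggaatagcagtcctaga
Slc40a1 A_51_P389988, from base 2980 of NM_016917: cctttcaatatccctgagaagAATAAAgaa
Steap4 A_51_P143893, from base 2165 of NM_054098: tccttggatatatggaaagctatgtaattg
The positions are where the whole probe starts in the transcript, as the array files give them. The brightest *Slc11a2* and *Slc40a1* probes hold the signal near their ends. The probe A_52_P196476 is annotated to another *Slc11a2* transcript than the other 3, and A_55_P2620111 to another *Slc40a1* transcript than A_51_P389988. Whether a probe also reads other transcripts of its gene was not checked.

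By the brightest probe of each gene, which stands for it in all counts, *Tfrc*, *Slc11a2*, *Hmox1*, *Ncoa4* and *Steap4* rose and the iron exporter *Slc40a1* fell in the conditional knockout, whereas *Slc11a1*, *Fth1*, *Ftl1* and *Steap3* did not pass. This was 5 of 10 genes higher and 1 of 10 lower, against 23% and 28.5% of the 20645 tested genes, of which 51.5% passed in either direction. More than 2-fold higher were 3 of 10 genes and more than 2-fold lower 0 of 10, against 9.89% and 7.19% of all tested genes. The median log2 difference of the 10 genes was 0.47, and that of all tested genes was -0.059. Counted by probe, 11 of 18 were higher, 2 were lower and 5 did not pass, against 21.8% higher and 30.6% lower of all tested probes. Probes of the same gene are not independent, and every *Slc11a2* probe is among the 11. By more than 2-fold, 8 of 18 probes were higher and 1 was lower, against 8.91% and 8.11% of all tested probes. All 18 probes were tested, and 17 were well above background on all 6 arrays. The groups did not overlap for 8 of 10 genes, which was also so for 64% of all tested genes, so that a lack of overlap alone says little on these arrays. Before normalization between arrays the differences had the same signs for the genes that passed, at 2.12 for *Tfrc*, 1.03 for *Slc11a2*, 4.73 for *Steap4*, 0.42 for *Ncoa4*, 0.38 for *Hmox1* and -0.98 for *Slc40a1*, and that of *Steap3* was -0.46.

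**Figure D1:**
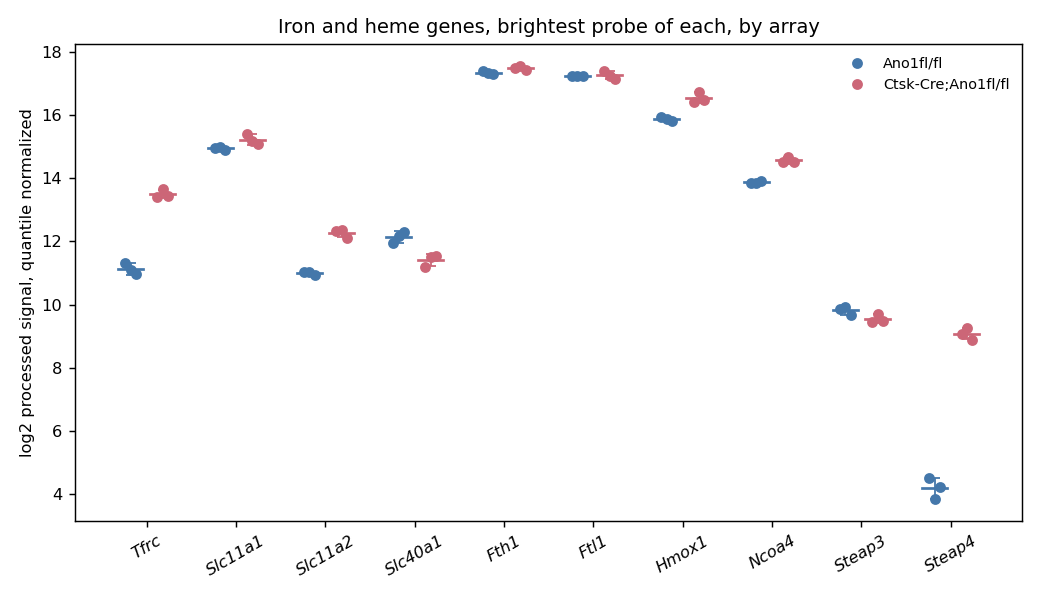
Log2 processed signal after quantile normalization (vertical axis) of the brightest probe of each of the 10 genes (horizontal axis), with 1 point per array, a line at the mean and bars of 1 SD for 3 arrays per group. The knockout points lie above all control points for Tfrc, Slc11a2, Hmox1, Ncoa4 and Steap4, by a narrow margin also for Slc11a1 and Fth1, which did not pass, and below them for Slc40a1. Heights of different genes are not comparable, since each has its own probe.

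*Tfrc* encodes the transferrin receptor, the main door for iron. Its brightest probe, at chr16:32632255-32632314 of mm9 on the plus strand, read 11.33, 11.09 and 10.97 on the 3 control arrays on the log2 scale of the normalized signal. On the 3 knockout arrays it read 13.40, 13.65 and 13.43. The groups were far apart, and even the lowest knockout array stood above the highest control array by more than the whole range within either group. The log2 difference was 2.37 ± 0.12 (SE, 3 arrays per group), a signal 5.16-fold that of the controls (limma, adjusted p = 4.18e-05). The second probe lies further inside the transcript, at chr16:32620470-32620529, and read 9.60, 9.14 and 8.86 in the controls and 10.95, 11.46 and 11.33 in the knockout. It gave a difference of 2.05 ± 0.22 (limma, adjusted p = 0.000579), which was smaller than that of the first probe by 0.32, a gap that did not pass limma's comparison of the probes of a gene (adjusted p = 0.434). The rise was thus seen at both places of the transcript.

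The 270 bases around a *Tfrc* start in RefSeq, from 250 before it to 20 after it, are printed because the rise of *Tfrc* was large and because this gene is known to answer to hypoxia-inducible factors, whose core motif ACGTG is in capitals. The window is chr16:32608646-32608915 on the plus strand of GRCm38.p6, a later build than that of the probes.
Tfrc promoter: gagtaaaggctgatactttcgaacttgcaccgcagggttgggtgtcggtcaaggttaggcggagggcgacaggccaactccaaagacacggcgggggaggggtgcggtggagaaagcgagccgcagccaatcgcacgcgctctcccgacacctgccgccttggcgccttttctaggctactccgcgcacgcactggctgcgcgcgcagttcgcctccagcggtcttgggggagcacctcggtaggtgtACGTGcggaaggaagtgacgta
Windows of 300 bases were at hand for 7 of 10 genes, with 14 windows in all. ACGTG, searched on both strands, was in 4 of 14 windows, those of *Tfrc*, which overlap and share 1 match, and of *Ncoa4*, and in 19.6% of 32851 windows of all genes. The E-box CACGTG, which contains ACGTG, was in 0 of 14 windows and in 7.15% of all. The core of the antioxidant element, TGACNNNGC, was in 1 of 14 windows, of *Ncoa4*, and in 12.4% of all. These are matches of letters and say nothing about binding.

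*Steap4* and *Steap3* encode metalloreductases that turn ferric into ferrous iron, and *Steap4* rose while *Steap3* did not pass. *Steap4*, also known from inflamed fat tissue and macrophages, had 1 probe, at chr5:7981239-7981298, and had the largest difference of the 10 genes. Its signal was 4.51, 3.84 and 4.21 on the control arrays, of which 2 of 3 were well above background, and 9.08, 9.25 and 8.89 on the knockout arrays. The control values thus lie at the edge of detection, while all 3 knockout arrays were clearly above it. The probe entered the test through the knockout arrays alone, since the control array at 3.84 was not well above background. With that value kept, the log2 difference was 4.89 ± 0.19, or 29.6-fold (limma, adjusted p = 1.51e-05). Its size rests on how the dim control spots are handled: it was 2.91 after normexp background correction and 3.53 with the unsubtracted intensities of the series matrix, and passed in both. *Steap3*, the endosomal reductase of red cell precursors, read 9.86, 9.93 and 9.67 in the controls and 9.46, 9.71 and 9.50 in the knockout. These groups overlapped, with a difference of -0.27 ± 0.11 that did not pass (limma, adjusted p = 0.0812). Under 3 alternatives the difference of *Steap3*, still below 0, did pass, among them that without the second knockout array, at -0.35.

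*Slc11a2* encodes DMT1, which carries ferrous iron out of the endosome, and all 4 of its probes rose. Its mRNAs are known to end in different ways, of which some carry an iron-responsive element and some do not, and the array files do not say which probe reads which. The brightest probe, at chr15:100218333-100218392 on the minus strand, read 11.05, 11.02 and 10.93 on the control arrays and 12.32, 12.36 and 12.12 on the knockout arrays. This was a difference of 1.27 ± 0.093, or 2.41-fold (limma, adjusted p = 0.000136), with tight groups far from each other. The probe A_55_P2830119, at chr15:100219212-100219271, differed by 1.27 ± 0.12 (limma, adjusted p = 0.000326). Near the start of the transcript, A_52_P254298 at chr15:100240516-100240575 differed by 1.45 ± 0.14 (limma, adjusted p = 0.000408). These 3 probes, all annotated to NM_008732, span that transcript from base 253 to its end and gave differences from 1.27 to 1.45. They may also read other transcripts of the gene, which was not checked.

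The fourth *Slc11a2* probe, A_52_P196476 of NM_001146161, rose further than the others. At chr15:100223347-100223406 it read 7.68, 7.65 and 7.74 in the controls and 10.52, 10.47 and 10.16 in the knockout, a difference of 2.69 ± 0.11 or 6.47-fold (limma, adjusted p = 1.94e-05). In limma's test of each probe against the other probes of its gene, its difference was larger by 1.36 (adjusted p = 2.1e-06), and 24.3% of 18418 probes passed that test. The excess was 1.21 to 1.45 over 9 alternatives and passed in all 9. The 2 brighter probes also passed this test, with differences smaller than those of the gene's other probes by 0.53 and 0.54, since the fourth probe is among those others. Against the brightest probe, its log2 signal within an array stood at -3.37, -3.37 and -3.18 on the control arrays. On the knockout arrays it stood at -1.80, -1.89 and -1.96. The gap between these probes therefore narrowed on each knockout array, by 1.42 on average (exact permutation test, 2-sided p = 0.1, the smallest that 3 against 3 arrays allow). This comparison was chosen after the values had been seen, and what sets the probes apart was not tested.

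*Slc11a1* encodes NRAMP1, a metal transporter of the phagosome in macrophages and neutrophils. Its single probe at chr1:74432161-74432220 was bright, with 14.96, 14.98 and 14.89 on the control arrays and 15.41, 15.17 and 15.08 on the knockout arrays. The groups did not overlap, but the lowest knockout array stood only just above the highest control array, and before normalization between arrays the group means were nearly equal (log2 difference 0.00031). The normalized difference was 0.28 ± 0.10 (limma, adjusted p = 0.0644) and did not pass. It passed in 4 of 17 alternatives, among them that without the third knockout array, at 0.35.

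Ferritin is built from the heavy chain *Fth1*, which oxidizes iron, and the light chain *Ftl1*, which helps to form the iron core. *Fth1* read 17.39, 17.32 and 17.30 in the controls and 17.48, 17.57 and 17.43 in the knockout, a difference of 0.16 ± 0.076 that did not pass (limma, adjusted p = 0.132). The brighter *Ftl1* probe read 17.24, 17.23 and 17.24 and 17.39, 17.25 and 17.15, with overlapping groups and a difference of 0.028 ± 0.086 (limma, adjusted p = 0.801). The dimmer *Ftl1* probe, A_55_P2851873, differed by 0.17 ± 0.086 (limma, adjusted p = 0.142). The ferritin probes were among the brightest of the array, with that of *Fth1* at or above the 99.9th percentile of all probes on each array. The probes of all these iron and heme genes had lower differences before the quantile step than after it, such as *Ncoa4* with 0.42 against 0.69. For the ferritin probes the differences lay below 0 before it, at -0.045 for *Fth1* and at -0.18 and -0.077 for the brighter and the dimmer *Ftl1* probe. Both genes are known to have many processed copies in the genome that resemble the mRNA, and their probes were not checked against them, so these values are uncertain as readings of a single gene.

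*Ncoa4*, whose product leads ferritin to the lysosome so that its iron can be used, rose by a modest and even amount. Its brightest probe at chr14:32992281-32992340 read 13.86, 13.84 and 13.92 on the control arrays and 14.50, 14.68 and 14.51 on the knockout arrays. The difference was 0.69 ± 0.082, or 1.61-fold (limma, adjusted p = 0.000847), and each knockout array was above each control array. A second probe at chr14:32992124-32992183 read 13.22, 13.24 and 13.45 and 14.02, 14.14 and 13.98, a difference of 0.74 ± 0.096 (limma, adjusted p = 0.00120). The probes lie next to each other near the 3′ end of NM_001033988 and gave nearly the same answer.

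*Slc40a1* encodes ferroportin, the only known exporter of iron from animal cells, and was the only 1 of the 10 genes that fell. Its brightest probe at chr1:45965255-45965314 on the minus strand read 11.94, 12.17 and 12.30 in the controls and 11.19, 11.50 and 11.53 in the knockout. All knockout arrays lay below all control arrays, with a difference of -0.73 ± 0.14, a signal 1.66-fold higher in the controls (limma, adjusted p = 0.00543). A dim probe of another transcript, at chr1:45980637-45980696, read 6.54, 6.46 and 6.95 and 4.84, 5.22 and 5.22, a difference of -1.56 ± 0.17 (limma, adjusted p = 0.000619). Both probes thus fell. The dim probe's difference was lower by a further 0.83, which passed the test of probes within a gene (adjusted p = 0.0247) but not after normexp background correction, where the further difference was -0.033, nor with the series matrix, where it was -0.33. Without the first control array, the second knockout array or the third knockout array it did not pass either, although its size was kept, at -0.79, -0.85 and -0.83.

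*Hmox1* encodes heme oxygenase 1, which cuts heme into biliverdin, carbon monoxide and iron. Its brightest probe, at chr8:77624406-77624466, read 15.94, 15.88 and 15.82 on the control arrays and 16.43, 16.75 and 16.46 on the knockout arrays. The groups did not overlap, and the difference was 0.67 ± 0.11 or 1.59-fold (limma, adjusted p = 0.00290). A dim probe of the transcript ENSMUST00000160341 read 5.97, 6.15 and 5.88 and 6.73, 7.68 and 6.88, where the second knockout array stood well above the other two. Its signal was 2.14-fold that of the controls, with a standard error of 0.25 on the log2 scale (limma, adjusted p = 0.0116), and its gap to the brightest probe did not pass (adjusted p = 0.331).

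**Figure D2:**
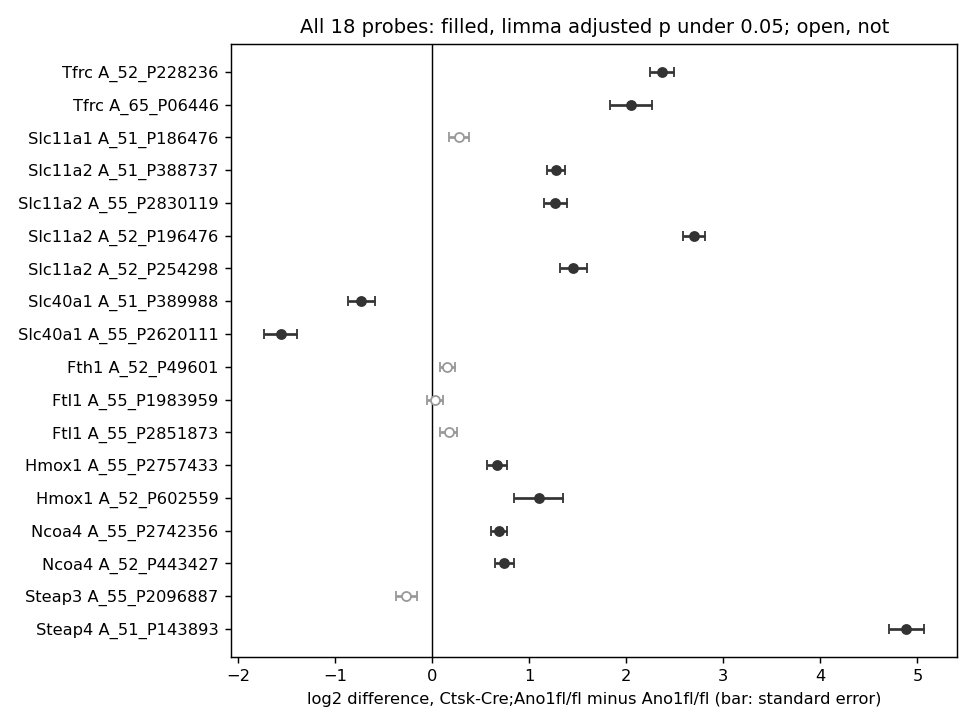
Log2 difference, conditional knockout minus control, of each of the 18 probes (points) with its standard error from limma (bars), filled where the adjusted p was under 0.05. All 4 Slc11a2 probes lie above 0, with A_52_P196476 apart from the other 3 at 2.69, and both Slc40a1 probes lie below 0.

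Beyond the 10 genes, 95 other genes of iron and heme handling were sorted into 7 lists by their role. Of these, 92 were on the array and 80 were tested, and 35 rose, 11 fell and 34 did not pass. Here and in each list below, the shares to read the counts against are the 23% of all tested genes that were higher and the 28.5% that were lower. Their median log2 difference was 0.21, against -0.059 for all tested genes.

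Iron entry held the largest rises of single genes among the 7 lists. Of its 11 tested genes 7 rose and 0 fell, with a median of 0.35. The reductases *Steap1* and *Steap2*, relatives of *Steap4*, and *Timd2*, a receptor that can take up ferritin, were well above background on all 3 knockout arrays and on 0 of 3 control arrays. Only lower limits can be given for them, since the control values are not measured: *Steap1* was at least 35.5-fold higher, *Timd2* at least 26.9-fold and *Steap2* at least 9.56-fold. They entered the test only through the knockout arrays, so no p-value is printed for these limits. The *Timd2* limit holds for its brightest probe alone. Its difference exceeded that of the gene's other probes by 2.83 (limma's comparison of the probes of a gene, adjusted p = 0.0082). On the knockout arrays *Steap1* read 9.37, 9.40 and 8.59. The 4 tested genes that did not pass were *Mcoln1*, *Slc39a8*, *Exoc6* and *Tfr2*, the second transferrin receptor, with differences from -0.19 to 0.35. Transferrin itself, *Tf*, was not analysed here.

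In the list of iron export and hepcidin control 5 of 11 genes were tested, with 4 higher and 1 lower and a median of 1.32. Of the ferroxidases, which oxidize iron as it leaves the cell, *Cp* and *Heph* rose and *Hephl1* was too dim to be tested. *Cp*, ceruloplasmin, read 10.05, 9.99 and 10.45 on the control arrays and 13.05, 13.22 and 13.16 on the knockout arrays, a difference of 2.98 ± 0.14 (limma, adjusted p = 2.62e-05), larger by 0.86 than that of the gene's other probes (adjusted p = 0.00408). *Heph*, hephaestin, was not well above background in the controls and was at least 3.18-fold higher in the knockout. It entered the test only through the knockout arrays, so no p-value is printed for this limit. *Neo1*, a co-receptor of the signal that induces hepcidin, rose by 1.32 ± 0.17. The gene that fell, *Hfe*, is outside the rule for named genes and was named after its value was seen. Its product binds the transferrin receptor, and its difference was -1.22. *Hamp*, the gene of hepcidin itself, was among the 6 genes of the list that stayed in the background on all arrays.

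Cytosolic iron chaperones, ferritin's partners and the iron regulatory proteins had 3 of 9 tested genes higher, 0 lower and a median of -0.034. *Epas1*, a hypoxia-inducible factor whose mRNA bears an iron-responsive element, rose by 1.28 ± 0.16 (limma, adjusted p = 0.00107). *Aco1*, iron regulatory protein 1, rose by 0.45 ± 0.076 (adjusted p = 0.00347) and *Glrx3*, an iron-sulfur glutaredoxin, by 0.23 ± 0.074 (adjusted p = 0.0386). The rise of *Glrx3* rests on its brightest probe, which differed from the gene's other probes by 0.37 (adjusted p = 0.0264), more than the rise itself. *Ireb2*, iron regulatory protein 2, stood at -0.24 (adjusted p = 0.0846), and *Fbxl5*, which marks that protein for degradation, at -0.034. Both did not pass, and both were named after their values were seen.

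Of 12 tested genes of heme synthesis 3 rose, 3 fell and 6 did not pass, with a median of -0.054, all close to the shares and the median of all tested genes. *Alas1*, the first and rate-limiting enzyme outside red cells, rose by 0.91 ± 0.11 (limma, adjusted p = 0.000999) and *Cpox* by 0.73 ± 0.097 (adjusted p = 0.00136), the latter by 0.52 more than the gene's other probes (adjusted p = 0.0482). *Abcb6*, a porphyrin transporter, changed by -0.70 ± 0.18 (adjusted p = 0.0183). The remaining genes that passed, named after their values were seen, were *Fech* at 0.39, *Urod* at -0.37 and *Abcb10* at -0.35. The red cell enzyme *Alas2* was too dim to be tested.

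In heme transport and breakdown 5 of 11 tested genes rose, 3 fell and 3 did not pass, with a median of 0.018. *Hp*, haptoglobin, which binds free hemoglobin, read 13.65, 13.64 and 13.78 in the controls and 15.65, 15.59 and 15.16 in the knockout, a rise of 1.77 ± 0.14 (limma, adjusted p = 0.000203). *Slc48a1*, which moves heme out of the lysosome, rose by 0.58 ± 0.14 (adjusted p = 0.0126), whereas *Abcg2*, an exporter that can carry porphyrins, changed by -0.93 ± 0.068 (adjusted p = 0.000137). Named after their values were seen, the biliverdin reductases that act on the product of heme oxygenase both rose, *Blvra* by 0.47 and *Blvrb* by 0.44. *Pgrmc1* rose by 0.52, *Lrp1*, the receptor for heme bound to hemopexin, stood at -0.45, and *Hmox2*, the constant form of heme oxygenase, at -0.32. These last 2 passed as lower, opposite to *Hmox1*.

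Mitochondrial iron and iron-sulfur cluster genes included 19 tested genes, with 7 higher, 2 lower, 10 that did not pass and a median of 0.13. *Hspa9*, the chaperone that helps to hand on new clusters, rose by 1.22 ± 0.075 (limma, adjusted p = 7.42e-05). Among those that fell was *Slc25a28*, mitoferrin 2, at -0.87 ± 0.070 (adjusted p = 0.000198). The other mitoferrin, *Slc25a37*, stood at -0.13 and did not pass.

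Regulators and targets that respond to heme and to electrophiles, the group to which *Hmox1* belongs by its known control, had 6 of 13 genes higher, 2 lower, 5 that did not pass and a median of 0.48. *Maff*, a small Maf partner, read 6.88, 7.44 and 7.45 in the controls and 10.36, 10.42 and 10.33 in the knockout, a rise of 3.11 ± 0.17 (limma, adjusted p = 4.55e-05). *Slc7a11*, the cystine importer, rose by 1.73 ± 0.19 (adjusted p = 0.000618) and *Spic*, a factor that heme induces in macrophages, by 1.43 ± 0.20 (adjusted p = 0.00157). The genes that fell, named after their values were seen, were *Bach1*, the heme-binding repressor of *Hmox1*, at -0.35, and *Keap1*, which holds down the activator NRF2, at -0.56. Of the common NRF2 targets in the list, *Slc7a11* and *Txnrd1* rose, the second by 0.51 (adjusted p = 0.0127), and *Nqo1*, *Gclm*, *Gclc* and *Srxn1* did not pass, with differences of 0.20, 0.49, -0.17 and 0.37. Those other than *Slc7a11* were likewise named after their values were seen.

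**Figure D3:**
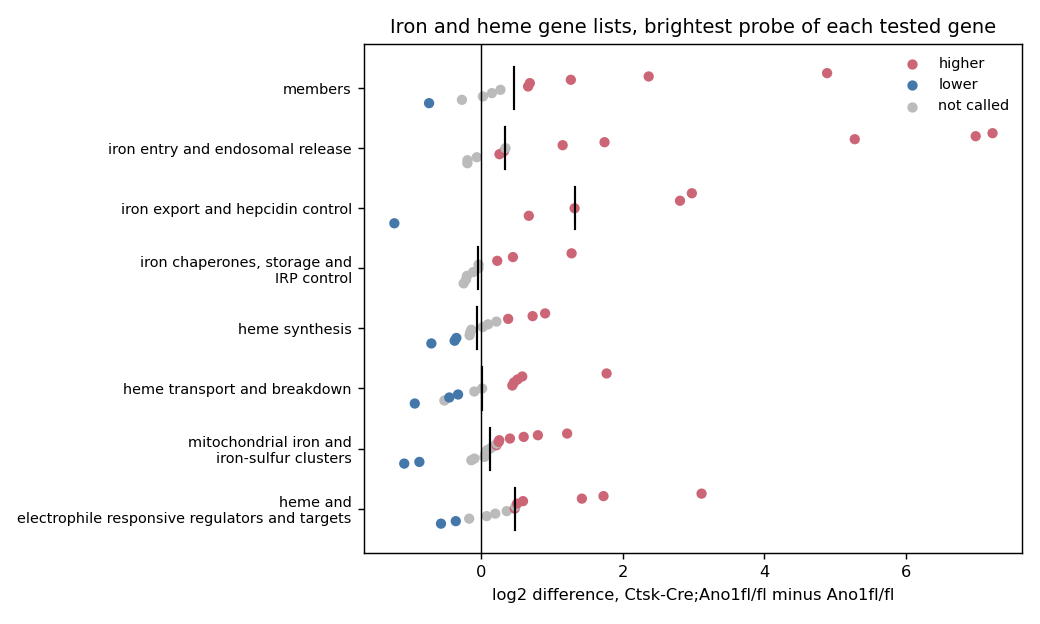
Log2 difference, conditional knockout minus control, of the brightest probe of each tested gene (points), by list, with a black bar at each list's median. Red points passed as higher, blue as lower and grey did not pass. Steap1, Timd2, Steap2 and Heph are drawn at their measured differences although their control values lie in the background, so that only the lower limits in the text hold for them.

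Markers of several cell types moved together with these genes. All 13 osteoclast markers rose by their brightest probes, with a median of 2.92. Their summed linear signal was 212522 to 230099 on the control arrays and 616700 to 696823 on the knockout arrays. The rise of *Nfatc1*, named after its value was seen, was 0.53 and rests on that probe. It differed from the gene's other probes by 1.06 (limma, adjusted p = 0.000914). By name, *Acp5* and *Tcirg1* rose by 0.84 and 0.59, and *Oscar* by 6.48. *Calcr* rose by 8.89 from control values well above background on only 2 of 3 arrays. This was larger by 1.81 than the difference of the gene's other probes (limma, adjusted p = 0.000998). Of 16 tested stromal and osteoblast markers 13 rose and 1 fell, with a median of 3.80 and a summed signal of 23629 to 25623 against 93818 to 137937, among them *Col1a1* by 6.12 and *Sparc* by 4.82. *Postn* rose from control values well above background on only 1 of 3 arrays, at 6.50, a size that rests on dim spots. The brightest *Acta2* probe rose by 0.54, and its difference from the change of the gene's other probes was -3.97 (limma, adjusted p = 6.69e-06). All 12 proliferation genes fell, with a median of -1.64 and sums of 192113 to 215213 against 68783 to 94275, such as *Plk1* at -2.53, *Ccnb2* at -2.30, *Birc5* at -1.88 and *Pcna* at -0.44. The part of these shifts in the rises of *Tfrc*, *Slc11a2*, *Steap4*, *Ncoa4* and *Hmox1* and in the fall of *Slc40a1* was not tested.

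Macrophages and neutrophils are known to express *Slc11a1*, and macrophages *Slc40a1* and *Hmox1*. Of 15 tested monocyte and macrophage markers 2 rose and 6 fell, with a median of -0.036 and sums of 701592 to 719788 against 748363 to 823842. *Lyz2* and *Csf1r* stood at 0.13 and -0.036 and did not pass, while *Cx3cr1* and *Ccr2* stood at -4.62 and -3.36 and passed. The 2 that rose, named after their values were seen, were *Marco* at 3.01 and *Adgre1* at 0.80. Without *Marco*, a choice made after the values were seen, the sums were 682335 to 702202 in the controls and 615457 to 654929 in the knockout, so the higher sum of the list rests on that gene. Of 13 neutrophil markers 10 fell and 1 rose, with a median of -2.07 and sums of 359189 to 377226 against 225078 to 276720. *Retnlg*, *Prtn3* and *S100a8* fell, at -3.68, -3.46 and -0.60, and *S100a9* stood at 0.20 and did not pass. Their part in the values of these genes was not tested.

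Red cell precursors are a well known site of high *Tfrc*, *Slc11a2* and *Steap3*. Of 17 such markers on the array 9 stayed in the background on all 6 arrays, among them *Klf1*, *Ahsp*, *Rhag* and *Hbb-b1*. Of the 7 that were tested 0 rose and 5 fell, with a median of -0.54, among them *Gata1* at -1.47, *Hba-a1* at -1.09 and *Hba-a2* at -1.09, while *Rhd* at 0.69 and *Hbb-bt* at -0.15 did not pass. The summed signal was 11918 to 15183 on the control arrays and 5152 to 8512 on the knockout arrays. The part of red cell precursors in the values of the iron genes was not tested.

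**Figure D4:**
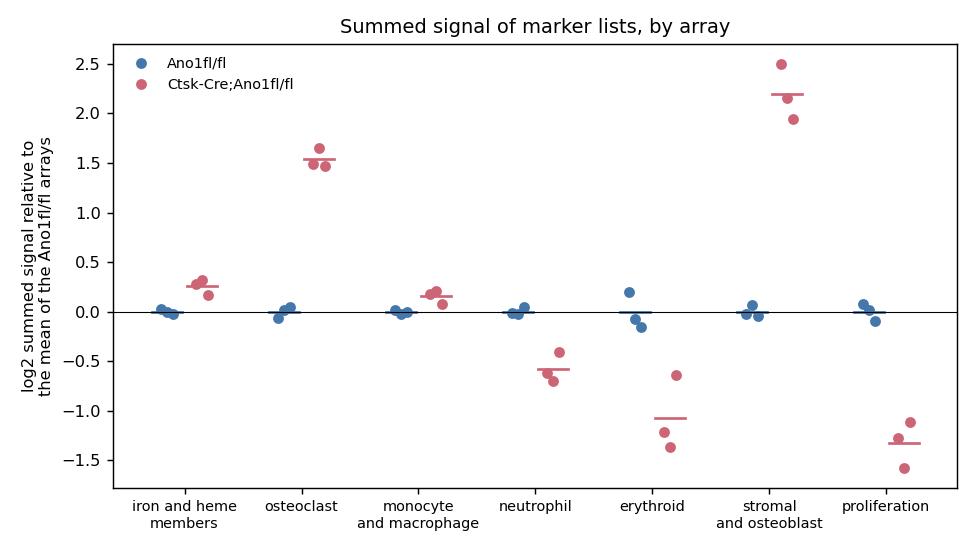
Summed linear signal of each marker list on each array, as log2 relative to the mean of the control arrays (points), with a line at the group mean of 3 arrays. Osteoclast and stromal sums stand above the controls on all 3 knockout arrays. By less, so do the sums of the 10 iron and heme genes and of monocytes and macrophages, the latter through Marco. Fth1 and Ftl1, which did not pass, make up most of the sum of the 10 genes. The neutrophil, erythroid and proliferation sums stand below the controls.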

How the data were processed

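Per the labels and the file headers, the authors hybridized Cy3-labelled cRNA to Agilent SurePrint G3 mouse arrays and read them with Feature Extraction 10.7.1.1. The deposited scanner intensities are linear: a processed signal, background-subtracted and detrended within the array, and raw spot and background intensities. The deposited series matrix equalled the median spot intensity (largest difference 0), so the quantile step named in the methods was done here.

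Log2 processed signals of the transcript spots, without those marked as outliers, were quantile normalized over the 6 arrays and averaged per probe, which dropped 14 probes that lacked a value. A probe counted as measured if a share of 0.5 or more of its spots was well above background, and was tested if measured on all 3 arrays of a group, which left 31848 probes. Groups were compared with lmFit and eBayes in limma 3.58.1 (R 4.3.3, data.table version 1.17.8), adjusted by Benjamini-Hochberg over all probes, at 0.05. Probes of a gene were compared with limma's diffSplice. The code was tested on simulated data. The limits for probes below background compare the bright group's mean with the dim group's mean of, per array, the probe's own value or that of the dimmest measured probe, whichever is higher. Named genes are the 10 members, up to 3 per pathway list with the largest difference among those that passed without overlap, and per marker list up to 2 brightest and up to 2 with the largest difference. Some genes that this rule takes are not reported here. Members and lists were chosen with earlier results of these data known. Probe names and positions (mm9) were read from the array files, and 16 of 18 probes had a RefSeq accession, of which 16 matched the same symbol. Exon annotation was not used here. Promoter windows are from RefSeq, GRCm38.p6. Tables and plots used Python 3.11.15, pandas 2.3.3 and matplotlib 3.10.9. The number of arrays limits the precision. The alternatives tried are given in the closing section.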

Additional observations from a re-analysis of the deposited data

How the results depend on the processing

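The calls of *Tfrc*, *Slc11a2*, *Slc40a1*, *Hmox1*, *Ncoa4* and *Steap4* held in every alternative run, 17 each and 16 for *Steap4*, which has no value where all 6 arrays must be well above background. Their log2 differences ranged from 2.21 to 2.47, 1.21 to 1.67, -1.15 to -0.62, 0.56 to 0.88, 0.60 to 0.73 and 2.91 to 5.04. *Slc11a1* passed at 0.28 with normexp, with the series matrix values and with eBayes using trend and robust settings, and *Steap3* passed at -0.25 with normexp and at -0.26 with the series matrix. *Fth1* passed at 0.16 with trend and robust settings. Leaving out each array in turn, *Slc11a1* ranged from 0.18 to 0.35, passing in 1 of 6, *Steap3* from -0.35 to -0.21, passing in 1 of 6, and *Ftl1*, which did not pass, from -0.035 to 0.085, with the value below 0 without the first knockout array. For these changes the cause was not tested. With a change of more than 2-fold required, 1 probe of the 10 genes was lower in place of 2, and 14 pathway genes were higher and 2 lower in place of 35 and 11. The median difference over all probes was -0.087, and -0.14 with 75th percentile scaling. Without a given array, 11 to 12 probes of the 10 genes were higher and 2 to 3 lower. Same-numbered arrays did not deviate together (r of -0.022, -0.085 and -0.094). Whether the samples were paired by litter or culture cannot be told from this, and the labels do not say. With the number as a replicate block, 11 probes of the 10 genes were higher and 2 lower, 31 pathway genes were higher and 9 lower, and over all probes 5988 were higher and 8162 lower in place of 6943 and 9747. The methods' Student test gave 6262 and 8287 after Benjamini-Hochberg adjustment. Dim spots, such as *Steap4* in the controls, carry sizes that follow the background correction.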
